A study of Mus musculus with 6 samples.

Results

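The unfolded protein response and the integrated stress response were followed in muscle stem cells (MuSCs) through 10 genes, Atf4, Ddit3, Trib3, Asns, Chac1, Ppp1r15a, Hspa5, Xbp1, Dnajb9 and Herpud1. They were taken from the deposited table of 22706 genes by symbol alone, and each was found once. RNA-seq values came from 6 libraries of 3 groups with 2 libraries each. Control mice were wild type, mdx mice are mutant for dystrophin (Dmd) and serve to model Duchenne muscular dystrophy, and Sirt6mKO/mdx mice are mdx mice that also lack Sirt6, a histone deacetylase of the sirtuin family, in the muscle lineage. Pax7-ICNCre drives that deletion from the Pax7 locus, so it is present from development on and in the fibres that descend from these cells as well as in MuSCs. All 6 samples are labelled with strain C57BL/6, while the methods of the study list mdx mice as a C57BL/10ScSn strain and its reporting summary gives a C57BL/6 background with littermate controls for all mice. Age, sex and pooling of animals are not given in the labels, and the study names male mice for its in vivo experiments on these genotypes. MuSCs were freshly sorted by flow cytometry after muscle was digested with dispase and collagenase, and the gate described by the study left out cells with Sca1, CD45 or CD31.

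The endoplasmic reticulum (ER) folds secreted and membrane proteins, and unfolded proteins there are sensed by PERK, IRE1 and ATF6. PERK, like the kinases GCN2, PKR and HRI of the integrated stress response, phosphorylates eIF2a, which slows translation in general while it favours translation of ATF4. ATF4 then induces genes of amino acid supply and of stress-induced death, whereas IRE1 splices Xbp1 mRNA and, with ATF6, raises chaperones and ER-associated degradation. In quiescent MuSCs, phosphorylation of eIF2a and PERK signalling are known to help maintain the stem cell state. ATF4 output is set largely by translation and XBP1 output by splicing, and neither is measured by the amount of RNA per gene.

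The ER stress response reaches genes through short promoter elements, and the promoters of the tested members that hold such an element are shown here so that the element can be seen beside each member's values. Sequences are from RefSeq on assembly GRCm38.p6 and run from 250 bases before to 50 bases after the annotated start, and all 10 members were matched. Capitals mark the matches to the motifs searched on both strands, the ER stress response element ERSE (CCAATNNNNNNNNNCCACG), ERSE-II (ATTGGNCCACG), the C/EBP-ATF response element CARE bound by ATF4 (TGATGNAA) and the UPR element core (TGACGTG). The 4 promoters printed are Hspa5 (chr2:34771840-34772139, plus strand), Herpud1 (chr8:94386179-94386478, plus strand), Chac1 (chr2:119350992-119351291, plus strand) and Asns (chr6:7693160-7693459, minus strand).
Hspa5: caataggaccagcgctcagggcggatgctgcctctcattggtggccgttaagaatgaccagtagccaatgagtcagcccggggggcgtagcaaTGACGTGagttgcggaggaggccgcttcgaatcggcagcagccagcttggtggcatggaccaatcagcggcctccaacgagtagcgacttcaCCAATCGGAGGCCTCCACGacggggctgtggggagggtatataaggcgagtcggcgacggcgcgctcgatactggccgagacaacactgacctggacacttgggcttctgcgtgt
Herpud1: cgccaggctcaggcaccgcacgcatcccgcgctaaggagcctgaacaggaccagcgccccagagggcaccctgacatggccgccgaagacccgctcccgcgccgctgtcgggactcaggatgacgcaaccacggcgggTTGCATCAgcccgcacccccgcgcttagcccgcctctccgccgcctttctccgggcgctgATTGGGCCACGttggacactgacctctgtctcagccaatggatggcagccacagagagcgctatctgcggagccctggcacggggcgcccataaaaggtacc
Chac1: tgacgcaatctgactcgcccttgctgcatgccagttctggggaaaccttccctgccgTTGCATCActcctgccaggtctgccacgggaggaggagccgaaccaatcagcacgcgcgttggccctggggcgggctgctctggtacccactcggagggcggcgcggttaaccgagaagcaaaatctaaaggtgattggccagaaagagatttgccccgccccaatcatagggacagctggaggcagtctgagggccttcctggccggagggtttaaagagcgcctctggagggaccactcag
Asns: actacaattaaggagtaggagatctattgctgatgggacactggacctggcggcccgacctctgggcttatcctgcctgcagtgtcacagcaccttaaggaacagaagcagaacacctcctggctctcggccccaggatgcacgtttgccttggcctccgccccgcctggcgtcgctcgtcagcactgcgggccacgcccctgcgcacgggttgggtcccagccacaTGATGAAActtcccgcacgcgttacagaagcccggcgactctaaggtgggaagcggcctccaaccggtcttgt
Hspa5 held ERSE 65 bases and the UPR element core 157 bases before its start, and no matches overlapped. Herpud1 held ERSE-II 52 bases before its start and CARE, on the minus strand, 112 bases before it. CARE was also found in Chac1 193 bases before the start on the minus strand, in Asns 23 bases before the start, and in Trib3 14 bases after the start on the minus strand. In 32851 RefSeq mouse promoters of this length, ERSE was found in 0.119%, ERSE-II in 0.037%, CARE in 3.97% and the UPR element core in 2.01%. The letters searched were not in the windows of Atf4, Ddit3, Ppp1r15a, Xbp1 and Dnajb9. A match describes the sequence only.

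Values are normalized read counts, that is, read counts that the authors divided by a size factor for each library. The approximate depth was 4397765 to 9744197 reads per library, so that 1 read was worth 0.65 to 1.86 units, and 18983 to 20614 genes were above 0. Sirt6 was at 41 and 32 in control, against 33 and 40 in mdx and 37 and 30 in Sirt6mKO/mdx. Reads per gene do not resolve the deleted exons, so the deletion was not checked here, and every direction for this group rests on its label. Separately, the study reports genotyping PCR of sorted Sirt6mKO MuSCs and RT-qPCR of Sirt6 in MuSCs of these groups. Xist, which is expressed from the inactive X chromosome of female cells, was at 16772 and 12950 in control, and at most 34 in the other libraries, while the Y-linked Ddx3y was at most 8 in control and at least 1024 in the others. The control libraries thus go against the sex that the study names for its in vivo experiments, and sex and genotype cannot be told apart in either comparison with control. Summed values of 9 MuSC markers ranged from 21231 to 29029, and the 1 marker called in any comparison, Sdc4, was at 7692 and 6224 in control, against 1100 and 1049 in mdx and 2753 and 2822 in Sirt6mKO/mdx (log2 fold changes of -2.69 in mdx against control, 1.37 in Sirt6mKO/mdx against mdx and -1.31 in Sirt6mKO/mdx against control, each called). Whether fewer cells of a type or less RNA per cell underlies a difference cannot be told apart in bulk RNA. Nothing in the labels says that the libraries of a group came from separate animals, although the methods of the study describe biological replicates, so p-values measure only the spread between these samples.

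How MuSCs differ in dystrophic muscle was read from mdx against control. Of 9 members tested, 6 were lower in mdx and 0 higher: Atf4, Ddit3, Chac1, Ppp1r15a, Hspa5 and Dnajb9 fell, with log2 fold changes between -3.27 and -1.14. Of all 15915 genes tested, 7.34% were called lower and 6.89% higher, and the median log2 fold change was -1.17 over the members against 0.00 over all genes. A gene was tested with a mean over the 6 libraries of at least 5, which left out only Trib3, and called with an adjusted p of at most 0.05 (limma, Benjamini-Hochberg) and an absolute log2 fold change of at least 1. Herpud1 passed the adjusted p but not the minimum fold change, Xbp1 passed neither, and Asns had a log2 fold change in the other direction that was not called. The calls of Ppp1r15a and Hspa5 held without any 1 of the 6 libraries. Without mdx replicate 1 the calls were 3 (Ppp1r15a, Hspa5 and Herpud1), and without mdx replicate 2 or control replicate 1 they were 4. Of 28 immediate early and dissociation response genes, 27 were also lower in mdx, and the part of that shift in the members' values was not tested.

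Sirt6 loss in dystrophic MuSCs was followed in Sirt6mKO/mdx against mdx. By the methods of the study, Sirt6mKO mice carry Pax7-ICNCre and come from crosses with a YFP reporter strain. The study sorted MuSCs by surface markers or by a reporter, and the sample titles do not say which. Cre, reporter and sort gate may thus differ along with Sirt6, and they cannot be told apart here. Of the 9 members tested, 5 were higher in Sirt6mKO/mdx and 0 lower: Ddit3, Chac1, Ppp1r15a, Hspa5 and Dnajb9 rose, with log2 fold changes between 1.18 and 2.62. Of all genes tested, 5.62% were called higher and 2.54% lower, and the median log2 fold change was 1.18 over the members against 0.02 over all genes. Both comparisons use the same mdx libraries, so a chance deviation of mdx enters each with the opposite sign. The calls of Ppp1r15a and Dnajb9 held without any 1 library, but the count was 2 without mdx replicate 1 or without either Sirt6mKO/mdx library, and 3 without mdx replicate 2. When each library was scaled to the same total in place of the size factors, 3 members were called higher (Chac1 at 2.02, Ppp1r15a at 1.94 and Dnajb9 at 1.38), while the median of all genes moved to -0.58 and 479 of 3411 called genes were higher in place of 895 of 1300. The same 28 immediate early and dissociation response genes held 27 that were higher in Sirt6mKO/mdx than in mdx, and their part was not tested here either.

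The comparison of Sirt6mKO/mdx with control called 0 of the 9 members by limma, with 5.19% of all genes called higher and 2.68% lower. The members' median log2 fold change was -0.21 against 0.01 over all genes. An unadjusted p under 0.05 was reached by 3 members, Asns, Ppp1r15a and Dnajb9. With the same total in each library the median of all genes was again -0.58, 455 of 3148 called genes were higher in place of 826 of 1253, and Ppp1r15a (-1.31) and Hspa5 (-1.16) were called lower. Without control replicate 1 Dnajb9 was called (1.17). Without control replicate 2, which leaves only a value of 0 for Asns in control, Asns was called (4.69).

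**Figure D1:**
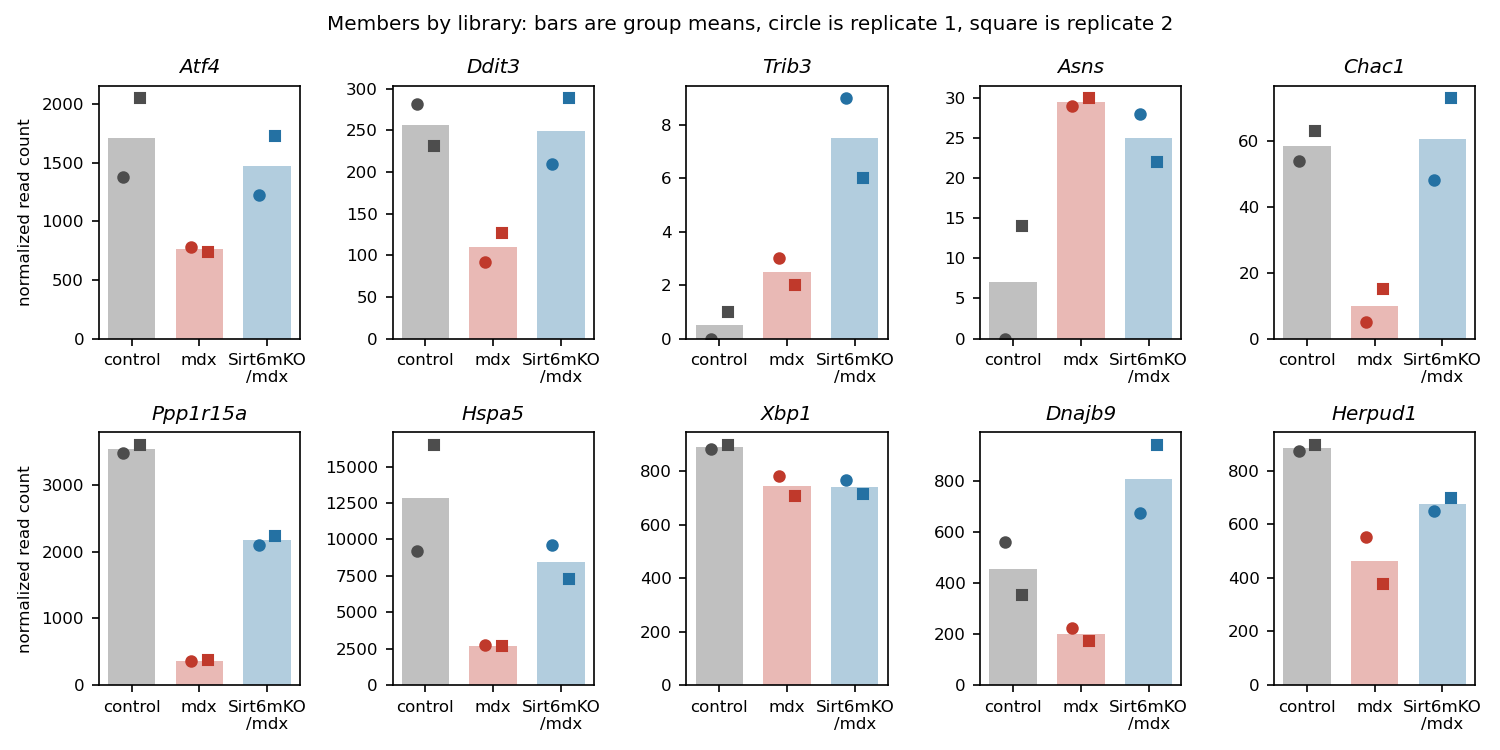
Normalized read count of each of the 10 members (y axis, starting at 0 and with its own range per gene) in the control, mdx and Sirt6mKO/mdx groups, with bars for group means and points for the 2 libraries of a group. Both mdx libraries lie under all 4 others for Atf4, Ddit3, Chac1, Ppp1r15a, Hspa5, Dnajb9 and Herpud1, with Ppp1r15a at 362 and 369 in mdx against 2105 to 3610 elsewhere. The share of all genes with this pattern was not counted.

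Per kb of exon, which allows levels of different genes to be compared, Hspa5 was the most abundant member in each group, at 3040 in control, 635 in mdx and 2004 in Sirt6mKO/mdx. The order below it differed between the groups. In control it was Ppp1r15a at 1207 per kb, Atf4 at 728, Herpud1 at 380, Xbp1 at 275, Dnajb9 at 179, Ddit3 at 150, Chac1 at 35.7, Asns at 2.56 and Trib3 at 0.235. In mdx, Ppp1r15a stood at 124 per kb, below Atf4 at 323, Xbp1 at 229 and Herpud1 at 199, and Asns at 10.8 stood above Chac1 at 6.11. In Sirt6mKO/mdx, Ppp1r15a was again next to Hspa5 at 739 per kb, and Dnajb9 at 318 stood above Herpud1 at 289 and Xbp1 at 228. Neighbours in these orders whose libraries overlapped per kb were not separated beyond their spread: Dnajb9 and Ddit3, and Asns and Trib3, in control, Xbp1 and Herpud1, and Dnajb9 and Ddit3, in mdx, and Ppp1r15a and Atf4, and Dnajb9 and Herpud1, in Sirt6mKO/mdx.

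Atf4 (ENSMUSG00000042406; mm10 chromosome 15, 80255184 to 80257540, plus strand) encodes the transcription factor at which the eIF2a kinases converge. Its normalized read count was 1376 and 2055 in control, against 780 and 743 in mdx, and 1224 and 1729 in Sirt6mKO/mdx. Both mdx libraries were lower than the other 4, and the control and Sirt6mKO/mdx libraries overlapped. Group means were 1716 ± 480, 762 ± 26.2 and 1477 ± 357 (SD, n = 2). Atf4 fell by 1.14 in mdx against control (SE 0.28, limma adjusted p 0.0111). The log2 fold change of 0.93 in Sirt6mKO/mdx against mdx had an adjusted p of 0.0471 and was under the minimum fold change, so it was not called, and with the same total in each library it was 0.31 (adjusted p 0.527). Against control it was -0.21 (adjusted p 0.699). The fall in mdx was lost as a call without control replicate 2, at -0.85, and without either mdx library.

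Ddit3 (ENSMUSG00000025408; chromosome 10, 127290774 to 127296288, plus strand) encodes CHOP, a target of ATF4 that is known to promote death under lasting ER stress. Its normalized read count was 282 and 231 in control, against 92 and 127 in mdx, and 210 and 289 in Sirt6mKO/mdx. The mdx libraries stood below all others, and the Sirt6mKO/mdx libraries spanned the control range. Ddit3 fell by 1.23 in mdx (SE 0.30, adjusted p 0.0113) and rose by 1.18 in Sirt6mKO/mdx against mdx (adjusted p 0.0237). Its log2 fold change against control was -0.05 (95% interval -0.69 to 0.59, adjusted p 0.946). The fall was not called without mdx replicate 1 (adjusted p 0.143) or control replicate 1 (-1.09, adjusted p 0.0752), and the rise was not called without any 1 of the mdx and Sirt6mKO/mdx libraries, with adjusted p-values up to 0.215, or with the same total in each library, at 0.56 (adjusted p 0.251). The gene overlaps Mars and Gm4189 on the other strand and another gene model named Ddit3, and whether reads were counted by strand is not given in the sources used here, so its level is uncertain.

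Trib3 (ENSMUSG00000032715; chromosome 2, 152337422 to 152344032, minus strand) encodes a pseudokinase induced by ATF4 and CHOP. Its normalized read count was 0 and 1 in control, against 3 and 2 in mdx and 9 and 6 in Sirt6mKO/mdx, from at most 6 approximate reads in a library. With a mean of 3.5 it was not tested. The values did not overlap between groups, but a count of 0 in control replicate 1 allows up to 4.53 units, which takes in both mdx values.

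Asns (ENSMUSG00000029752; chromosome 6, 7675169 to 7693254, minus strand), the ATF4 target that makes asparagine, was the only tested member with a higher mean in mdx than in control. It was at 0 and 14 in control, against 29 and 30 in mdx, and 28 and 22 in Sirt6mKO/mdx. The control libraries were the lowest, and they differed from each other by more than the other groups differed within themselves. The log2 fold change of 2.98 in mdx (SE 1.01, adjusted p 0.0556) was not called, and leaving out control replicate 2 gave 4.93, which was called, and leaving out control replicate 1 gave 1.02. With the same total in each library it was 3.04 and called (adjusted p 0.044). The value of 4.93 rests on control replicate 1 alone in control, whose 0 allows up to 4.53 units. With all libraries and a pseudocount of 0.1 or 10 in place of 1, the log2 fold change was 4.64 or 1.35. Between Sirt6mKO/mdx and mdx it was -0.24 (95% interval -2.38 to 1.91, adjusted p 0.914). With only the libraries of mdx and Sirt6mKO/mdx in the fit the value was the same, with an SE of 0.518 and an adjusted p of 0.805.

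Chac1 (ENSMUSG00000027313; chromosome 2, 119351229 to 119354381, plus strand) encodes an enzyme that degrades glutathione and is induced by ATF4 and CHOP. It was at 54 and 63 in control, against 5 and 15 in mdx and 48 and 73 in Sirt6mKO/mdx. The mdx libraries, with 8 and 19 approximate reads, lay below all others, and the Sirt6mKO/mdx libraries enclosed the control values. Chac1 fell by 2.60 in mdx (SE 0.59, adjusted p 0.00752) and rose by 2.62 in Sirt6mKO/mdx against mdx (adjusted p 0.0128). The fall was -1.89 and not called without mdx replicate 1. The rise was not called without mdx replicate 1 (1.91) or without either Sirt6mKO/mdx library (2.92 and 2.32), and was called at 3.33 without mdx replicate 2. Against control the log2 fold change was 0.02 (95% interval -1.23 to 1.27).

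Ppp1r15a (ENSMUSG00000040435; chromosome 7, 45522916 to 45526268, minus strand) encodes GADD34, the inducible subunit that directs phosphatase 1 to eIF2a and so ends the translational arrest. Its normalized read count was 3477 and 3610 in control, against 362 and 369 in mdx, and 2105 and 2236 in Sirt6mKO/mdx. The 3 groups did not overlap, and relative to their mean the libraries of each group lay closer together than those of any other member called. Means were 3544 ± 94.0, 366 ± 4.95 and 2171 ± 92.6 (SD, n = 2), and the level in mdx was 9.67-fold lower than in control. Ppp1r15a fell by 3.27 in mdx (SE 0.24, adjusted p 6.11e-07), and rose by 2.57 in Sirt6mKO/mdx against mdx (adjusted p 1.31e-05). These values moved little when 1 library was left out, between -3.30 and -3.25 and between 2.52 and 2.61. Against control the Sirt6mKO/mdx value was -0.71 (95% interval -1.22 to -0.19), which had an unadjusted p of 0.0105 and an adjusted p of 0.084. The gene overlaps Tulp2 on the other strand.

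Its constitutive counterpart Ppp1r15b, or CReP, was at 1142 and 1256 in control, against 412 and 517 in mdx, and 484 and 616 in Sirt6mKO/mdx. It fell by 1.37 in mdx (SE 0.25, adjusted p 0.00168) and its log2 fold change between Sirt6mKO/mdx and mdx was 0.24 (adjusted p 0.589). Per kb, the ratio of Ppp1r15a to Ppp1r15b within a library was 5.80 and 5.47 in control, against 1.67 and 1.36 in mdx, and 8.28 and 6.91 in Sirt6mKO/mdx. The ratio was lowest in both mdx libraries and highest in both Sirt6mKO/mdx libraries.

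Hspa5 (ENSMUSG00000026864; chromosome 2, 34771970 to 34776531, plus strand) encodes BiP, the main HSP70 chaperone of the ER and the regulator that holds the 3 sensors inactive. It was at 9192 and 16521 in control, against 2727 and 2648 in mdx, and 9640 and 7307 in Sirt6mKO/mdx. Both mdx libraries were under all others, the control libraries differed widely, and the control and Sirt6mKO/mdx libraries overlapped. The means were 12857 ± 5182, 2688 ± 55.9 and 8474 ± 1650 (SD, n = 2). Hspa5 fell by 2.20 in mdx (SE 0.38, adjusted p 0.00124) and rose by 1.64 in Sirt6mKO/mdx against mdx (adjusted p 0.0157). The rise was lost as a call without any 1 mdx or Sirt6mKO/mdx library (values from 1.44 to 1.84), and with the same total in each library, at 1.02. Against control the log2 fold change was -0.55 (95% interval -1.37 to 0.26).

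Xbp1 (ENSMUSG00000020484; chromosome 11, 5520659 to 5525893, plus strand) encodes the factor that IRE1 activates by splicing. It stood at 885 and 900 in control, against 781 and 707 in mdx and 768 and 715 in Sirt6mKO/mdx, the narrowest range of any member relative to its mean. The mdx and Sirt6mKO/mdx libraries overlapped and both groups lay below control. The log2 fold change was -0.26 in mdx (95% interval -0.76 to 0.23, adjusted p 0.479) and 0.00 in Sirt6mKO/mdx against mdx (95% interval -0.50 to 0.49, adjusted p 0.995). With the authors' size factors the interval of each excludes a change of 2-fold. With the same total in each library the value for Sirt6mKO/mdx against mdx was -0.63 (SE 0.287), and its interval takes in a 2-fold fall. A gene value adds the spliced and unspliced forms, so splicing was not measured.

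Dnajb9 (ENSMUSG00000014905; chromosome 12, 44205897 to 44210068, minus strand) encodes ERdj4, an ER co-chaperone of BiP and a well known target of spliced XBP1. Its normalized read count was 560 and 353 in control, against 225 and 173 in mdx, and 675 and 944 in Sirt6mKO/mdx. The 3 groups did not overlap, and besides Trib3 it was the only member for which both Sirt6mKO/mdx libraries were above all others. Dnajb9 fell by 1.17 in mdx (SE 0.29, adjusted p 0.0124) and rose by 2.01 in Sirt6mKO/mdx against mdx (adjusted p 0.000531). The fall was not called without control replicate 1, at -0.84, or without either mdx library. Against control its log2 fold change was 0.84 (95% interval 0.23 to 1.46, adjusted p 0.0834), and 0.24 with the same total in each library. The microRNA gene Mir5627 lies within it.

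Herpud1 (ENSMUSG00000031770; chromosome 8, 94386438 to 94395377, plus strand) encodes an ER membrane protein of ER-associated degradation. It was at 875 and 898 in control, against 551 and 376 in mdx and 650 and 700 in Sirt6mKO/mdx, with no overlap between the groups. In mdx the log2 fold change of -0.96 had an adjusted p of 0.0178 and was just under the minimum for a call, and without mdx replicate 1 it was -1.24 and called. The value for Sirt6mKO/mdx against mdx was 0.57 (adjusted p 0.177), and -0.06 with the same total in each library. The antisense gene Gm15890 overlaps it.

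**Figure D2:**
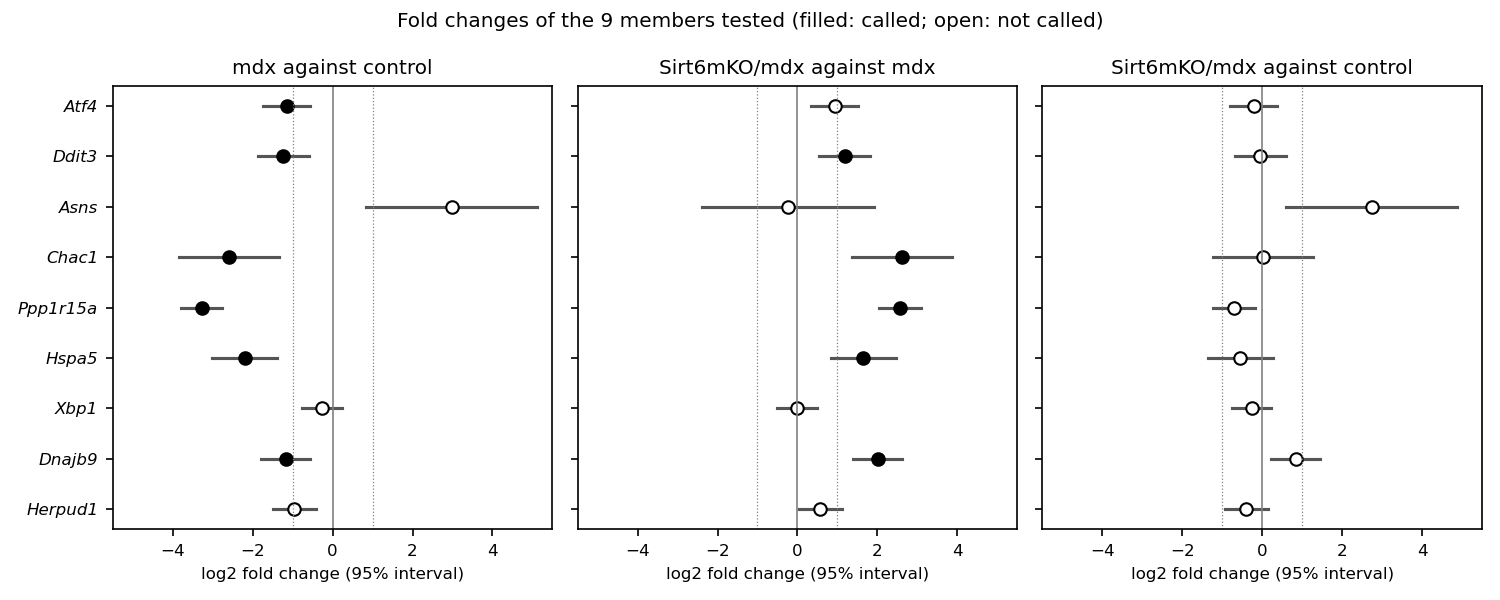
Log2 fold change (x axis) of the 9 members tested, with 95% intervals from limma as lines, in the 3 comparisons. Filled points mark calls, 6 below 0 in mdx against control, 5 above 0 in Sirt6mKO/mdx against mdx and 0 in Sirt6mKO/mdx against control, and dotted lines mark the minimum fold change.

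The rest of the pathway was read from lists of its parts that do not hold the members. Among 25 ER stress sensors and signal transducers, all tested, 2 were higher and 3 lower in mdx than in control, with a median log2 fold change of 0.16. Of all genes, 6.89% and 7.34% were called there. The counts were 0 higher and 1 lower in Sirt6mKO/mdx against mdx (median -0.28), where 5.62% and 2.54% of all genes were called. With the same total in each library they were 0 higher and 11 lower. In Sirt6mKO/mdx against control 5.19% and 2.68% of all genes were called. At these shares the list's counts with the size factors are near the background. Ern1, which encodes IRE1, was at 594 and 419 in control, against 195 and 201 in mdx and 364 and 302 in Sirt6mKO/mdx, and fell by 1.33 in mdx (adjusted p 0.00329). Eif2ak2, which encodes the double-stranded RNA sensor PKR, was at 76 and 112, 197 and 191, and 59 and 48 in the same order, and so it rose by 1.06 in mdx (adjusted p 0.0487) and had a log2 fold change of -1.85 in Sirt6mKO/mdx against mdx (adjusted p 0.00443). Creb3l1, the ER-bound factor OASIS, rose by 3.19 in mdx (adjusted p 0.00455) and was higher in Sirt6mKO/mdx than in control (2.81, adjusted p 0.0174), but its control libraries were at 33 and 4, and leaving out control replicate 1 or 2 gave 4.58 or 1.81 for the rise in mdx. Against control, 1 gene of the list was higher and 2 were lower in Sirt6mKO/mdx, Ppp1r15b (-1.13, adjusted p 0.0113) and Atf6 (-1.15, adjusted p 0.0153), and with the same total in each library 9 were lower. Without control replicate 2 the 2 higher calls in mdx became 4, and they became 0 without either mdx library and 1 without any other. The lower call in Sirt6mKO/mdx against mdx was lost without mdx replicate 1, mdx replicate 2 or Sirt6mKO/mdx replicate 2. Against control the 2 lower calls became 0 without control replicate 2 or either Sirt6mKO/mdx library, and the higher call held only without control replicate 1. Eif2ak3, which encodes PERK and was added after its values were seen, was not called in any comparison (-0.15, -0.48 and -0.63).

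Of the 22 other ER chaperones and folding enzymes, 3 were higher and 0 lower in mdx than in control (median 0.36), where 6.89% and 7.34% of all genes were called. In Sirt6mKO/mdx against mdx, 0 were higher and 6 lower (median -0.87, with 19 of 22 below 0), where 5.62% and 2.54% of all genes were called. At these shares a count of 0 among 22 genes is near the background. Their summed normalized read count was 11222 and 19667 in control, against 22171 and 19122 in mdx and 9447 and 10911 in Sirt6mKO/mdx, so that the Sirt6mKO/mdx libraries were the lowest and control replicate 2 lay within the range of mdx. Canx, the lectin chaperone calnexin, was at 1444 and 2918 in control, against 4044 and 3753 in mdx, and 1220 and 1899 in Sirt6mKO/mdx, where it fell by 1.36 against mdx (adjusted p 0.0229). Pdia4, a protein disulfide isomerase, fell by 1.39 (adjusted p 0.00884) from 834 and 702 in mdx to 283 and 298. Dnajc10, which encodes the disulfide reductase ERdj5, was at 314 and 485 in control and rose by 1.33 in mdx, to 1030 and 932 (adjusted p 0.00331), as did the prolyl isomerase gene Ppib (1.44, adjusted p 0.00465). Below control in Sirt6mKO/mdx were 2, the BiP co-chaperone gene Dnajc3 (-1.09, adjusted p 0.0242) and Hyou1, which encodes the nucleotide exchange factor of BiP (-1.16, adjusted p 0.0231). Of all genes, 2.68% were called lower there. Without any 1 of the mdx or Sirt6mKO/mdx libraries the 6 lower calls became 0, and with the same total in each library they became 16, as the 2 against control became 9. The latter became 5 without control replicate 1 and 0 without any other library. The 3 higher calls in mdx became 0 without mdx replicate 1 and 8 without control replicate 2.

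A ratio of 2 genes in the same library does not depend on the scaling, and such ratios of members to genes of these lists were chosen after the values were seen and were not tested. Per kb of exon, the ratio of Hspa5 to Hsp90b1, the HSP90 chaperone of the ER, was 6.15 and 4.91 in control, against 0.790 and 0.844 in mdx, and 7.78 and 4.76 in Sirt6mKO/mdx. Against Canx it was 7.06 and 6.28, 0.748 and 0.783, and 8.77 and 4.27 in the same order, and against the calreticulin gene Calr it was 5.16 and 4.15, 0.875 and 1.23, and 7.84 and 5.49. In each of these ratios both mdx libraries were below the other 4, and control overlapped with Sirt6mKO/mdx for Hsp90b1 and Canx but not for Calr. The ratio of Dnajb9 to Dnajc3 was 2.17 and 0.799 in control, against 0.690 and 0.611 in mdx and 4.05 and 6.24 in Sirt6mKO/mdx, with Sirt6mKO/mdx highest.

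**Figure D3:**
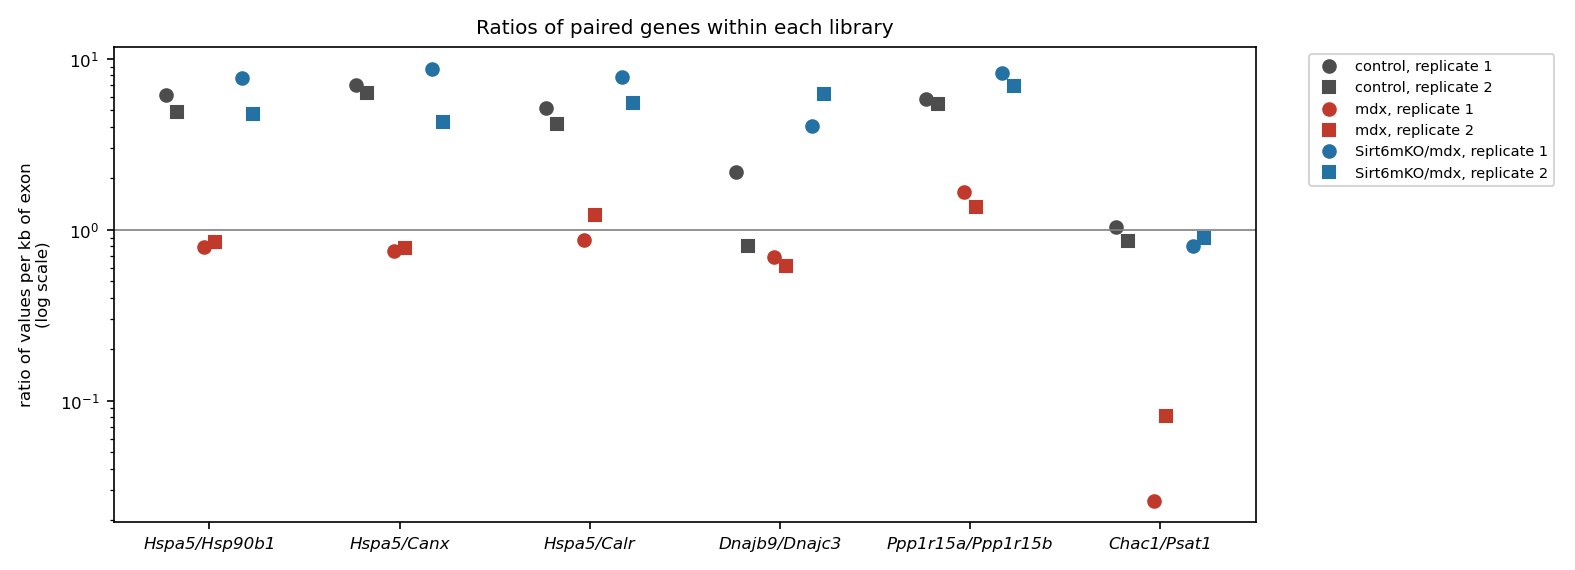
Ratio of the values per kb of exon of paired genes within each library (y axis, log scale; circles replicate 1, squares replicate 2). Both mdx libraries lie lowest in each of the 6 pairs plotted, for example at 0.790 and 0.844 for Hspa5 over Hsp90b1 and at 0.0259 and 0.0817 for Chac1 over Psat1.

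ER-associated degradation and the translocon held 24 tested genes. Of all genes, 6.89% were called higher and 7.34% lower in mdx against control. The shares were 5.62% and 2.54% in Sirt6mKO/mdx against mdx, and 5.19% and 2.68% in Sirt6mKO/mdx against control. At these shares a count of 1 among 24 genes is near the background. In mdx against control 1 was higher, Erlec1 (1.41, adjusted p 0.0258), which encodes an ER lectin, and 1 lower, the translocon subunit gene Sec61g (-1.82, adjusted p 0.0121). Both turned the other way in Sirt6mKO/mdx against mdx, Sec61g at 1.49 (adjusted p 0.0496) and Erlec1 at -1.43 (adjusted p 0.0389), and Vcp, which encodes the ATPase that extracts ER proteins, was lower as well (-1.10, adjusted p 0.0269). Vcp was also the only gene of the list called against control (-1.51, adjusted p 0.00429). The medians were 0.08, -0.29 and -0.32 in the 3 comparisons. With the same total in each library the list had 0 higher and 9 lower in Sirt6mKO/mdx against mdx, so that the higher call of Sec61g was lost, and 10 lower against control. In mdx the calls of both directions were lost without control replicate 1 or either mdx library, the higher one also without Sirt6mKO/mdx replicate 2, and without control replicate 2 the lower calls were 3. All 3 calls in Sirt6mKO/mdx against mdx were lost without any 1 library of these groups. Against control the lower calls were 3 without control replicate 1 and 0 without control replicate 2 or Sirt6mKO/mdx replicate 2.

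Of 41 listed ATF4 target genes other than the members, 40 were tested, all but Fgf21. In mdx against control 1 was higher and 6 were lower (median -0.44), in Sirt6mKO/mdx against mdx 4 were higher and 3 lower (median -0.24), and in Sirt6mKO/mdx against control 0 were higher and 6 lower (median -0.59). Of all genes, the shares called higher and lower were 6.89% and 7.34%, 5.62% and 2.54%, and 5.19% and 2.68% in the same order. With the same total in each library the list's counts were 3 higher and 14 lower against mdx and 0 higher and 16 lower against control. Without any 1 library of mdx or Sirt6mKO/mdx, the 4 higher calls became 2 or 3 and the 3 lower calls 0 or 1. Against control the 6 lower calls became 10 without control replicate 1, 1 without control replicate 2 and 0 without either Sirt6mKO/mdx library, and the 1 higher call in mdx became 3 without control replicate 2. Atf3, a stress-induced factor that is itself known as an immediate early gene, was at 3264 and 5358 in control, against 77 and 121 in mdx and 1391 and 1925 in Sirt6mKO/mdx. It fell by 5.42 in mdx (adjusted p 4.15e-08), rose by 4.07 in Sirt6mKO/mdx against mdx (adjusted p 1.56e-06) and was lower than control there (-1.35, adjusted p 0.0128). Cebpb, a C/EBP factor that can pair with ATF4 and CHOP, was at 292 and 343, 18 and 27, and 279 and 303, with log2 fold changes of -3.78 and 3.66 (adjusted p 2.37e-06 and 7.03e-06). Psat1, an enzyme of serine synthesis, moved in the other direction, at 136 and 190 in control, against 501 and 477 in mdx, and 155 and 212 in Sirt6mKO/mdx (1.60 and -1.43, adjusted p 0.00139 and 0.00614). Per kb, Chac1 over Psat1 was 1.03 and 0.862 in control, against 0.0259 and 0.0817 in mdx and 0.805 and 0.895 in Sirt6mKO/mdx. The glycyl-tRNA synthetase gene Gars was lower in Sirt6mKO/mdx than in mdx (-1.24, adjusted p 0.0207), and the arginine and lysine transporter gene Slc7a1 was lower there than in control (-1.50, adjusted p 0.0189). Of the 29 calls of list genes named by rule, 7 held without any 1 library, those of Ern1, Ppp1r15b, Psat1, Cebpb and Atf3 in mdx against control and those of Atf3 and Cebpb in Sirt6mKO/mdx against mdx.

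**Figure D4:**
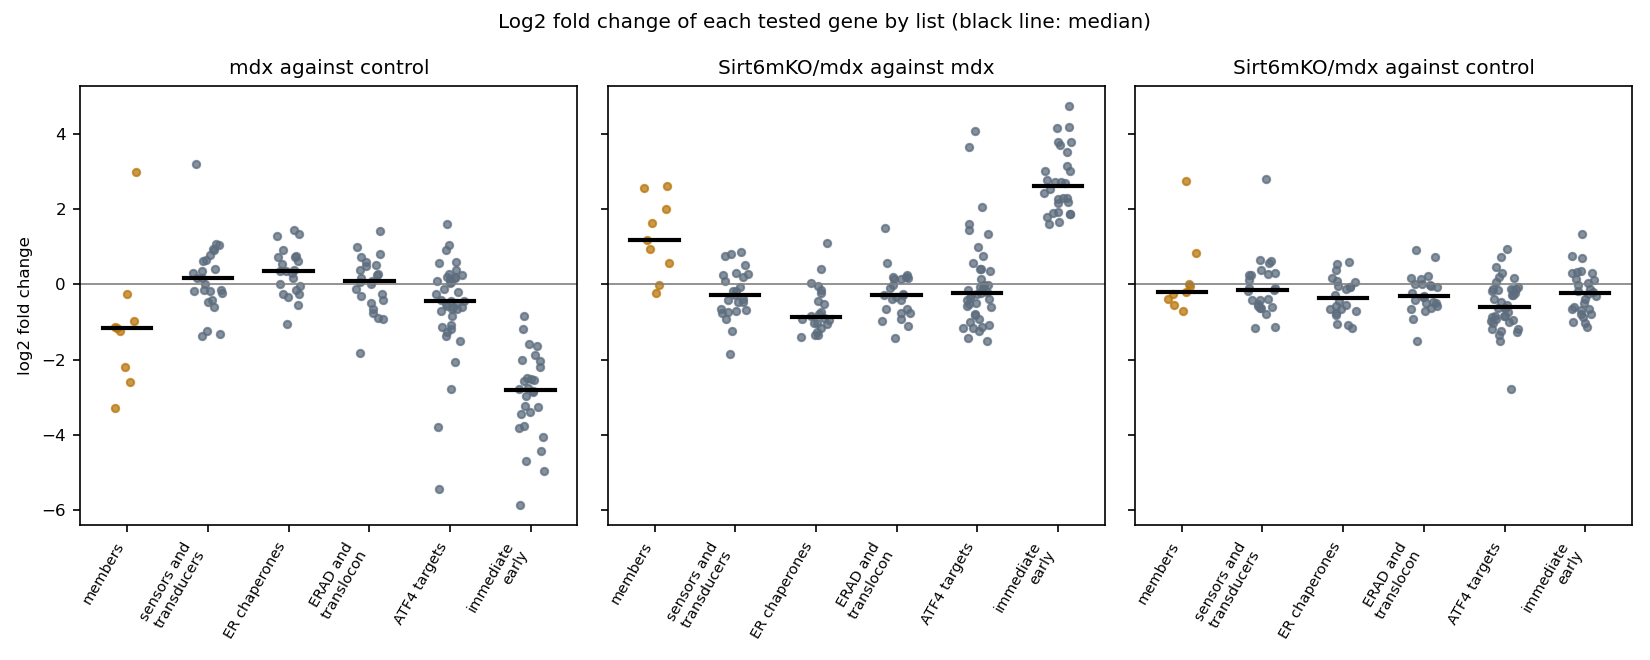
Log2 fold change (y axis) of each tested gene, one point per gene, for the 9 members and the 5 lists, in the 3 comparisons, with the median of each as a black line. The members' medians are -1.17, 1.18 and -0.21, those of the ER chaperones 0.36, -0.87 and -0.36, and those of the immediate early genes -2.80, 2.61 and -0.24.

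Other gene groups differed between the groups of libraries as well, some in the direction of the members and some against it, and their part in the results was not tested. Of 28 immediate early and dissociation response genes, heat shock genes among them, 27 were lower in mdx than in control and 27 were higher in Sirt6mKO/mdx than in mdx, with medians of -2.80 and 2.61, and the summed value was 240633 and 279578 in control, against 29713 and 37331 in mdx and 180400 and 184993 in Sirt6mKO/mdx. Genes of that kind are known to respond to enzymatic digestion and sorting. Of 7 myofibre markers, 3 were lower in mdx than in control and 2 were higher in Sirt6mKO/mdx than in mdx, with sums of 6383 and 6978, 4702 and 1400, and 9540 and 4129. Of 7 endothelial markers 5 were tested, 2 were lower in mdx, and the sums were 916 and 767, 408 and 429, and 618 and 642. Of 7 macrophage and leukocyte markers 5 were tested, and in mdx against control 1 was higher, Lyz2 (0 and 14 in control, 47 and 26 in mdx), and 1 lower, Cd68 (86 and 88 in control, 30 and 26 in mdx), with sums of 109 and 132, 103 and 82, and 192 and 183. The pan-leukocyte marker Ptprc was at 0 in both control libraries and at 3 to 19 in the others. Of 8 fibro-adipogenic markers, 2 were higher in mdx than in control, with sums of 20887 and 27586, 39032 and 31981, and 21323 and 28822. One of these 2, Col1a1, was called lower in Sirt6mKO/mdx than in mdx (-1.08, adjusted p 0.023). Plasma cells, which rely on XBP1, left little trace: Tnfrsf17 was at 0 in all libraries, Igkc at 0 in 5 of 6, Mzb1 at most 5 and Ighm at most 9. Sdc1, which other cells express too, made up most of the sum of 141 to 687. It was called higher in mdx than in control (1.54, adjusted p 0.00964). Erythroid markers, 2 of 5 tested, summed to 56 and 19 in control, against 7 and 14 in mdx and 39 and 91 in Sirt6mKO/mdx, and Hbb-bs was higher in Sirt6mKO/mdx than in mdx (3.39, adjusted p 0.0313). Of 5 smooth muscle and pericyte markers, 1 was higher in mdx than in control, Acta2 (1.18, adjusted p 0.0266), while 3 had a log2 fold change below 0, Mcam (-0.90), Rgs5 (-0.52) and Cspg4 (-0.49), and the median was -0.49. Acta2 made up most of their sums of 1222 and 2045, 3144 and 2592, and 1426 and 1945. Schwann markers, 3 of 4 tested, summed to 100 and 213, 194 and 178, and 109 and 115.

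Across the 6 libraries, the genes whose pattern was most like that of Atf4 among 9665 genes with a mean of at least 50 were Zfp839, Zfp692 and Srxn1, with a root mean square difference of 0.103, 0.117 and 0.127 between the centred log2 values. Srxn1, which encodes the antioxidant enzyme sulfiredoxin, was at 178 and 248 in control, against 100 and 94 in mdx and 167 and 179 in Sirt6mKO/mdx. Of the members with that mean, Herpud1 (0.281) and Ddit3 (0.311) were nearest to Atf4. Nearest to Hspa5 were Dnaja4, a cytosolic HSP40 co-chaperone gene (0.204), Cryab, which encodes a small heat shock protein (0.234), and the scaffold gene Akap12 (0.243), while the nearest members were Atf4 (0.516) and Ppp1r15a (0.546). Dnaja4 was at 955 and 1567 in control, against 195 and 250 in mdx and 704 and 689 in Sirt6mKO/mdx. These distances describe 6 libraries and were not tested.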

How the data were processed

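RNA of freshly sorted MuSCs was sequenced after removal of ribosomal RNA (Ion Torrent), in 2 libraries each of control, mdx and Sirt6mKO/mdx. The labels and the study's methods state that the authors used Reaper to trim reads and STAR (2.4.2a in the submitters' processing notes) to align them to mm10, counted reads of a single gene and place with featureCounts 1.4.5-p1 and normalized with DESeq2. The deposited values are whole numbers and were treated as a score: normalized read counts, rounded by the authors after division by a size factor. Size factors were recovered from skipped and repeated whole numbers (0.537 to 1.53), a method tested on simulated libraries, and gave the approximate depth. Fractions of a read are thus lost in low values.

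DESeq2 and edgeR need raw counts and were not used here. The test was limma 3.58.1 (R 4.3.3) over all 6 libraries on log2(value + 1), with its mean-dependent prior variance, no block, and two-sided p-values with Benjamini-Hochberg adjustment over the 15915 genes whose mean was 5 or more. It was tested on simulated data. Fold changes are on the log2(value + 1) scale, where the size of a change in low genes depends on the added 1. Calls needed an adjusted p of at most 0.05 and a fold change of at least 2. The members, lists, rules and tests were chosen with earlier results of these data known. All members are named. From each of 4 pathway lists (sensors, ER chaperones, ER-associated degradation, ATF4 targets) and comparison, those 2 highest and 2 lowest in fold change are named that were called, had a mean of 50 or more and did not overlap between groups. The 3 genes nearest to Atf4 and to Hspa5 are also named. Other names were chosen after their values were seen. Cell type lists covered MuSC, fibro-adipogenic, endothelial, macrophage and leukocyte, plasma cell, myofibre, Schwann, pericyte and erythroid markers. Exon lengths came from GENCODE mouse release 21, which held 98.53% of the identifiers. Alternatives covered the pseudocount, the minimum mean, the scaling, the prior variance, the libraries in the fit, the replicate block and the minimum fold change.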

Additional observations from a re-analysis of the deposited data

How the results depend on the processing

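In mdx against control the 6 members called became 1 without a minimum mean, 2 with one prior variance for all genes, and 3 to 6 when 1 library was left out. In Sirt6mKO/mdx against mdx the 5 became 1, 0 and 2 to 5 in the same order, and 3 with the same total in each library. In Sirt6mKO/mdx against control the 0 became 2 with the same total and 0 to 1 when 1 library was left out. Without a minimum mean the calls over all genes were 406, 19 and 2 in place of 2265, 1300 and 1253, and with one prior variance they were 541, 0 and 87. With the same total they were 3411 and 3148 in the comparisons with Sirt6mKO/mdx. Leaving out 1 library gave 921 to 2326, 252 to 1541 and 212 to 1416.

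Of 426 alternative values of single members, 367 stayed on the same side of the threshold in the same direction, 40 lost and 8 gained a call, and 11 changed direction, all in results that were not called. Xbp1 in Sirt6mKO/mdx against mdx was 0.04 with the same upper quartile and -0.08 to 0.07 when 1 library was left out. With the same total it kept its direction but moved to -0.63. Herpud1 in that comparison was -0.06 with the same total. In Sirt6mKO/mdx against control, Chac1 was -0.57 with the same total and -0.28 to 0.32 when 1 library was left out, Atf4 was -0.50 to 0.08 and Ddit3 was -0.28 to 0.18. The causes were not tested. With the replicate number as a block, 7, 5 and 0 members were called, the added one being Asns in mdx (adjusted p 0.0273). The numbers are not shown to pair the samples, since deviations of same-numbered libraries correlated at -0.128, 0.119 and 0.009. Trib3, with at most 6 approximate reads in a library, was left out of the tests by the minimum mean of 5.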

Other observations

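Within the ATF4 targets, chosen after the values were seen, the 12 aminoacyl-tRNA synthetase genes, which charge tRNAs with amino acids, were described as a group. In Sirt6mKO/mdx against control all 12 had a log2 fold change below 0 (median -0.90), and Eprs (-1.02), Iars (-1.19) and Wars (-1.23) were called lower, with limma adjusted p of 0.0327, 0.00651 and 0.0138. These 3 calls were lost without either Sirt6mKO/mdx library or control replicate 2, and that of Eprs also without either mdx library. In mdx against control 1 was called lower, Cars (-1.37, adjusted p 0.00216), with a median of -0.15, and in Sirt6mKO/mdx against mdx 2 were, Gars and Lars (-1.17, adjusted p 0.012), with a median of -0.55, and both calls were lost without any 1 mdx or Sirt6mKO/mdx library. The 9 enzymes of serine, proline, one-carbon and related amino acid metabolism had medians of 0.56 in mdx against control, with 8 of 9 above 0 and Psat1 called, and -0.61 in Sirt6mKO/mdx against mdx, with 8 of 9 below 0 and Psat1 called, a call lost without either mdx library or Sirt6mKO/mdx replicate 1.

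Slc38a2, an amino acid transporter gene, fell by 2.06 in mdx (adjusted p 0.000185) and rose by 1.44 in Sirt6mKO/mdx against mdx (adjusted p 0.00606). Sesn2, which encodes the leucine sensor sestrin 2, fell by 2.79 (adjusted p 0.000713) and rose by 2.06 (adjusted p 0.0113). Both falls held without any 1 library. The rise of Slc38a2 was lost as a call without mdx replicate 2 or either Sirt6mKO/mdx library and with the same total in each library (0.81, adjusted p 0.0714), and that of Sesn2 without any 1 mdx or Sirt6mKO/mdx library. Slc7a5, the light chain of the large neutral amino acid transporter, fell by 1.14 in mdx (adjusted p 0.00565), a call lost without mdx replicate 1, and its log2 fold change in Sirt6mKO/mdx against mdx was -0.14 (adjusted p 0.778). It was also called lower in Sirt6mKO/mdx than in control (-1.27, adjusted p 0.005), a call lost without either Sirt6mKO/mdx library. The comparisons of mdx with control and of Sirt6mKO/mdx with mdx share the mdx libraries.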
